A study of Mus musculus with 4 samples.

Results

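The miR-302/miR-367 cluster is a group of 5 neighbouring microRNA (miRNA) hairpins, miR-302b, miR-302c, miR-302a, miR-302d and miR-367, each of which gives a mature miRNA from its 5′ side (5p arm) and another from its 3′ side (3p arm). Its 10 mature miRNAs were taken by name from the 1907 mouse miRNAs measured, and the ratio of 5p to 3p reads was computed for each hairpin. Small RNA-seq was performed on E14Tg2A cells, a mouse embryonic stem (ES) cell line of 129/Ola origin, in 4 libraries with 1 library per group. ES serum cells were grown with leukemia inhibitory factor (LIF) in a medium holding 10% fetal calf serum, and ES 2iL cells in a serum-free N2/B27 medium holding LIF, the MEK inhibitor PD0325901 at 1 µM and the GSK3 inhibitor CHIR99021 at 3 µM. ELA serum and ELA 2iL were epiblast-like aggregates (ELA), made from the ES cells of the respective medium. Both had 2 days of floating culture in the same chemically defined minimal medium, whose listed contents include no LIF, serum, PD0325901 or CHIR99021. Where ELA is said below to be in serum or in 2iL, this names the medium of the earlier ES culture. Stage and the change of culture medium cannot be told apart here. Every library pooled the RNA of 3 experiments of a line that the labels do not describe as modified, so the spread between experiments could not be measured and the intervals below are 95% intervals that cover counting error only.

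A miRNA hairpin is cut by Dicer into a short duplex, of which usually a single arm is loaded onto an Argonaute protein and guides it to mRNAs. Pairing between the mRNA and bases 2 to 8 of the miRNA, its seed, decides most of the targeting, so miRNAs that share a seed are counted as a family. The miR-302/miR-367 hairpins lie on a common primary transcript that is known as a mark of pluripotent cells, above all of primed, epiblast-like cells, whereas the miR-290/miR-295 cluster carries related seeds and is known from naive mouse ES cells.

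In mm9 the 5 hairpins lay on the plus strand of chromosome 3, within 580 bp, in the order miR-302b (chr3:127248146-127248219), miR-302c (chr3:127248281-127248348), miR-302a (chr3:127248414-127248482), miR-302d (chr3:127248542-127248607) and miR-367 (chr3:127248651-127248725). The gaps between neighbours were 61, 65, 59 and 43 bp. All 5 were inside an intron of Larp7 (chr3:127247197-127248743), a gene on the opposite strand, and none overlapped an exon. Mature sequences in RefSeq (GRCm38.p6) were matched for 9 of the 10 members, and miR-302a-3p is given by name and level. The 3p arms are shown first because they hold most of the reads and their seeds tie the cluster to other miRNAs of ES cells. Capitals mark bases 2 to 8, counted from 1 at the 5′ end.
mmu-miR-302b-3p: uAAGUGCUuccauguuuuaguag
mmu-miR-302d-3p: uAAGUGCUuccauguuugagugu
mmu-miR-302c-3p: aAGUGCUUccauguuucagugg
mmu-miR-367-3p: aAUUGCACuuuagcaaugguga

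miR-302b-3p and miR-302d-3p had the same seed and were identical at 20 of 23 bases, with their first 17 bases shared. The listed start of miR-302c-3p fell 1 base later in the common stretch, so that its bases 2 to 8 read differently although its first 16 bases matched those of miR-302d-3p from base 2 on. A read cut short within these stretches fits more than 1 of these miRNAs, and how such reads were assigned was not stated. The 5p arms are shown to separate the 3 that share a seed from the other two.
mmu-miR-302b-5p: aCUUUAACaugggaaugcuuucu
mmu-miR-302c-5p: gCUUUAACaugggguuaccugc
mmu-miR-302d-5p: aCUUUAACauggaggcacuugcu
mmu-miR-302a-5p: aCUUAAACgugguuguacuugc
mmu-miR-367-5p: aCUGUUGCuaacaugcaacuc

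Of the 1623 listed miRNAs with a matched sequence, none outside the cluster had the seed of any of these 5p arms. The hairpins of miR-302b and miR-302c are shown because they had the lowest and a high share of 5p reads, respectively. Here the capitals mark the 2 mature arms.
miR-302b hairpin: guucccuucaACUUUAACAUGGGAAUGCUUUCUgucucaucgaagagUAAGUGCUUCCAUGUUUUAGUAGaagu
miR-302c hairpin: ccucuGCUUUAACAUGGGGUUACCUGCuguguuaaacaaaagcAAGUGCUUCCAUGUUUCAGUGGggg

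The libraries held 587363 to 8056984 reads on miRNAs, the fewest in ELA 2iL and the most in ES serum, and levels are reads per 1000000 of these reads (RPM). The miR-290/miR-295 cluster, a mark of naive pluripotency, was present in all 4 libraries (12 of 18 listed arms with reads, summed level 55535 to 183326 RPM), with its higher sums in both 2iL libraries. Both arms of miR-290a and of miR-292a were among the 6 listed at 0, and since the assignment of reads that fit several miRNAs was not stated, a listed 0 cannot be told apart from reads counted elsewhere. Markers of other cell types were also measured as lists. The summed neural list (4 of 5 with reads, miR-219a-5p at 0) was 657 and 871 RPM in ES cells and 477 and 548 RPM in ELA. From ES 2iL to ELA 2iL, miR-9-5p went the other way, from 156 to 218 RPM, while the other neural miRNAs with reads were lower in ELA. The summed mesenchyme list (4 of 4, nearly all miR-143-3p) was 3144 and 4834 RPM in ES cells and 1470 and 1961 RPM in ELA. The summed blood list (3 of 4, nearly all miR-142a-5p, with miR-142a-3p at 0) was 551 and 593 RPM in the serum libraries and 1612 and 2007 RPM in the 2iL libraries. The muscle list (3 of 3, nearly all miR-133a-3p) was 11.5 in ES serum and 48.5 RPM in ELA serum, against 0 in ES 2iL and 73.2 in ELA 2iL. The endothelial miR-126a-3p and the hepatic miR-122-5p were listed at 0 throughout. The part of these lists in the results was not tested.

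The cluster as a whole was highest in ELA serum and lowest in ES 2iL. Its 10 members took 0.595% of the miRNA reads in ES serum (0.590 to 0.601, Wilson interval) and 3.73% in ELA serum (3.71 to 3.75), against 0.00784% (0.00687 to 0.00896) in ES 2iL and 0.708% (0.687 to 0.730) in ELA 2iL. The summed level was 6.27-fold higher in ELA than in ES cells from serum (6.21 to 6.33, exact Clopper-Pearson interval) and 90.3-fold higher from 2iL (78.8 to 104). It was 75.9-fold higher in ES serum than in ES 2iL (66.4 to 87.1), and 5.27-fold higher in ELA serum than in ELA 2iL (5.11 to 5.43). The level in ELA 2iL was close to that in ES serum, at 7084 against 5952 RPM. With 1 library per group, these are differences between libraries. In such bulk samples, fewer cells that make the cluster and less of its RNA per cell cannot be told apart.

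**Figure D1:**
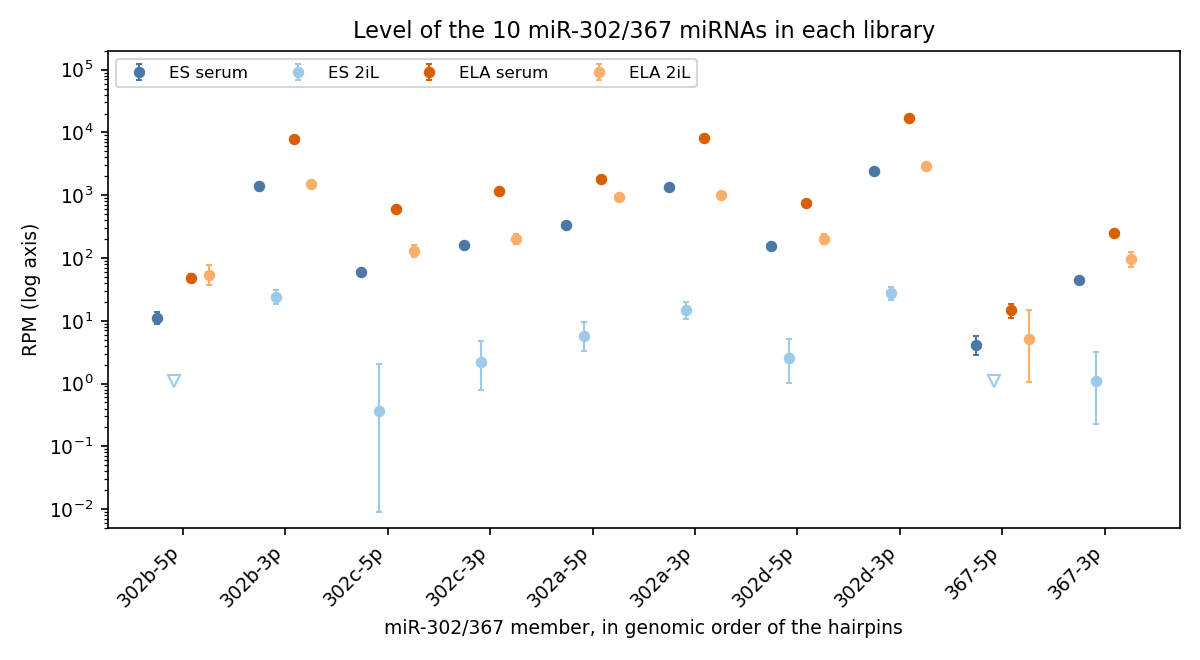
RPM (log axis) of the 10 miR-302/miR-367 miRNAs in each of the 4 libraries, with members on the horizontal axis in genomic order. Points are single libraries, bars are exact Poisson 95% intervals, and open triangles stand at the level of 3 reads (1.08 RPM) where ES 2iL had 0 reads. ES 2iL is the lowest library for all 10 members, and ELA serum is the highest for 9 of them.

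mmu-miR-302d-3p was the most abundant member in every library. Its level was 2451 in ES serum and 16726 RPM in ELA serum, against 27.5 in ES 2iL and 2930 in ELA 2iL, which ranked it 46, 13, 338 and 42 among the 1907 miRNAs. It was 6.82-fold higher in ELA than in ES cells from serum (6.72 to 6.93) and 107-fold higher from 2iL (84.8 to 136). mmu-miR-302a-3p was at 1343 in ES serum and 8176 RPM in ELA serum, against 14.8 in ES 2iL and 999 in ELA 2iL. It was the only member whose level in ELA 2iL lay below that of ES serum. Its ELA to ES ratio was 6.09 in serum (5.96 to 6.22) and 67.4 in 2iL (49.1 to 94.98). mmu-miR-302b-3p, with the seed of miR-302d-3p, was at 1384 in ES serum and 7744 RPM in ELA serum, against 24.2 in ES 2iL and 1524 in ELA 2iL. It was 5.59-fold higher in ELA in serum (5.48 to 5.72) and 62.9-fold in 2iL (49.1 to 81.9).

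The remaining 3p arms were less abundant and had the same order of libraries. mmu-miR-302c-3p was at 162 in ES serum and 1171 RPM in ELA serum, against 2.17 in ES 2iL (6 reads) and 203 in ELA 2iL, giving ELA to ES ratios of 7.22 in serum (6.79 to 7.68) and 93.4 in 2iL (41.7 to 260). miR-367-3p, whose seed is that of the miR-25/92 family, was at 43.8 in ES serum and 249 RPM in ELA serum, against 1.08 in ES 2iL (3 reads) and 95.3 in ELA 2iL. Its ratios were 5.67 in serum (5.03 to 6.42) and 87.9 in 2iL (28.6 to 439). Both 2iL ratios rest on a handful of ES 2iL reads, as the width of their intervals shows.

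Among the 5p arms, miR-302a-5p was the most abundant in each library, at 335 in ES serum and 1845 RPM in ELA serum, against 5.78 in ES 2iL and 940 in ELA 2iL. Its ELA to ES ratio was 5.51 in serum (5.28 to 5.76) and 163 in 2iL (99.2 to 286). mmu-miR-302d-5p was at 157 in ES serum and 739 RPM in ELA serum, against 2.53 in ES 2iL (7 reads) and 203 in ELA 2iL, with ratios of 4.71 (4.41 to 5.03) and 80.1 (37.7 to 204). mmu-miR-302c-5p was at 60.6 in ES serum and 607 RPM in ELA serum, against 0.361 in ES 2iL (1 read) and 131 in ELA 2iL. It had the largest ratio in serum of any member, 10.02 (9.09 to 11.1), and in 2iL the ratio of 363 had an interval of 63.2 to 14511.

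The 2 rarest members were the 5p arms of miR-302b and miR-367. mmu-miR-302b-5p was at 11.2 RPM in ES serum, 48.0 in ELA serum and 54.5 in ELA 2iL, with 0 reads in ES 2iL (exact Poisson upper limit 1.33 RPM). It was 4.30-fold higher in ELA than in ES cells from serum (3.34 to 5.57) and at least 38.6-fold higher from 2iL by the exact lower limit of the ratio, which is 50.2 when ES 2iL is set to the floor of 3 reads (1.08 RPM). mmu-miR-367-5p was at 4.10 in ES serum and 14.6 RPM in ELA serum, against 0 in ES 2iL and 5.11 in ELA 2iL (3 reads), and was 3.57-fold higher in ELA in serum (2.31 to 5.62). No fold can be given for it in 2iL.

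In all, 8 of the 10 members followed the order ELA serum, ELA 2iL, ES serum, ES 2iL from high to low. The exceptions were miR-302a-3p, which was higher in ES serum than in ELA 2iL, and miR-302b-5p, which was at about the same level in both ELA libraries (2iL to serum ratio 1.13, 0.756 to 1.65). For miR-367-5p, the steps between ELA serum and ELA 2iL and between ELA 2iL and ES serum were within counting error.

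To relate these changes to those of other miRNAs, differences were taken on log2(RPM + 1), where the added 1 RPM understates the change of low miRNAs. In serum all 10 members were higher in ELA, with a median difference of 2.48 (range 1.62 to 3.30), while the median was 0.08 over the 288 miRNAs whose log2(RPM + 1) averaged 5 or more in that pair. Of those 288, 8.33% were higher in ELA by at least 1, against 8 of the 8 members that reached this mean. In 2iL all 10 were higher in ELA by a median of 5.95 (2.61 to 7.12), with a median of -0.30 over 314 miRNAs. Of the 314, 15.3% were higher in ELA by at least 1, as were all 10 members. Only 4 members reached the mean of 5 here, and they did so through ELA 2iL, the library in which they were high, so their share cannot be read against the 15.3%. With 0 reads set to 3 and no added RPM, the median in 2iL was 6.46 over 9 members, without miR-367-5p, which had 3 reads or fewer in both libraries. The ELA minus ES difference was larger in 2iL than in serum for all 10 members, by a median of 3.41 (0.99 to 4.66) and by at least 1 in 9 of them. Over the miRNAs whose log2(RPM + 1) averaged 5 or more in the 4 libraries the median of this gap was 0.03, and 19.5% reached 1. Of the members, 8 reached that mean, some only through the libraries in which they were high, so that no share of members is read against the 19.5%.

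**Figure D2:**
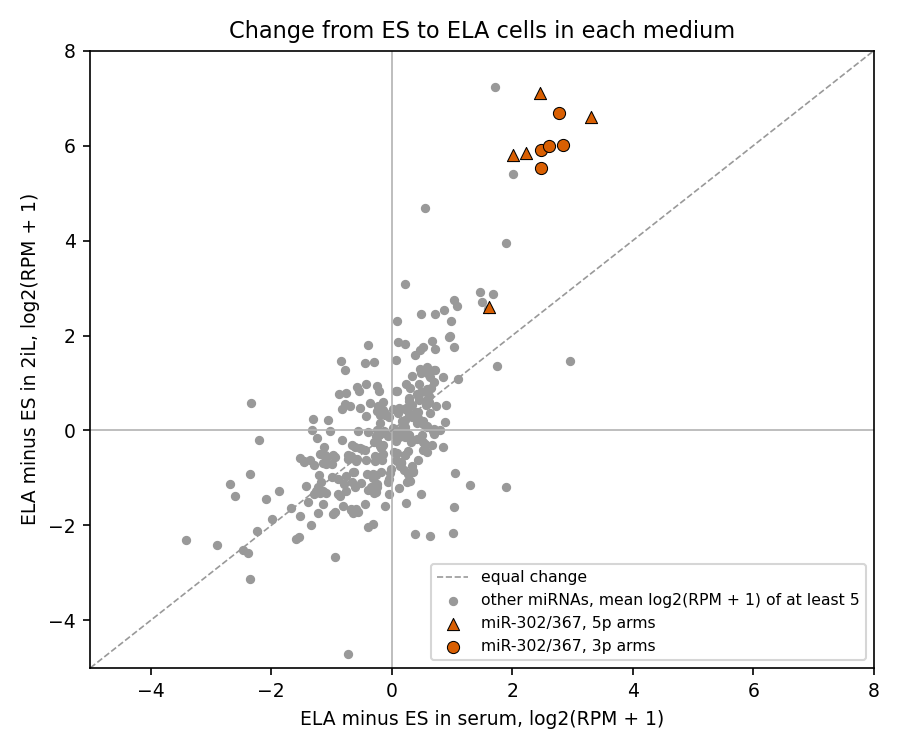
Difference between ELA and ES cells on log2(RPM + 1) for cells from serum (horizontal axis) and from 2iL (vertical axis) ES cultures. Grey points are other miRNAs whose log2(RPM + 1) averaged 5 or more over the 4 libraries, orange triangles and circles are the 5p and 3p arms of miR-302/miR-367, and the dashed line marks equal change. All 10 members lie right of 0 (1.62 to 3.30) and above the dashed line.

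The ES medium was compared at each stage in turn, which for ELA is the earlier medium. In ES cells all 10 members were lower in 2iL than in serum, by a median of -5.56 (-6.43 to -2.35), where 310 expressed miRNAs had a median of 0.50. A level lower by at least 1 was found for 14.8% of the 310 and for all 10 members, of which 4 reached the mean of 5 in that pair, through ES serum alone, so that no share of members is read against the 14.8%. The 3 most abundant members were 89.2-fold (miR-302d-3p, 71.3 to 113), 90.6-fold (miR-302a-3p, 66.8 to 126.3) and 57.2-fold (miR-302b-3p, 44.98 to 73.8) higher in ES serum than in ES 2iL. In ELA the gap was smaller. There, 9 of the 10 members were lower in 2iL and the median was -2.03 (-3.03 to 0.18), against 0.35 over all expressed miRNAs, and a level lower by at least 1 was found for 8.94% of all and for 7 of the 9 members with a mean of 5. The ELA comparison spread the members apart, from miR-302a-3p (8.18-fold higher in ELA serum, 7.54 to 8.89) through miR-302d-3p (5.71-fold, 5.44 to 5.99) and miR-302b-3p (5.08-fold, 4.76 to 5.44) to miR-367-3p (2.61-fold, 1.99 to 3.47) and miR-302a-5p (1.96-fold, 1.801 to 2.14), while miR-302b-5p, at a ratio of 0.882 (0.606 to 1.32), was at the other end. miR-302a-3p and miR-302a-5p, the arms of the same hairpin, thus differed in this comparison. The comparisons of stage and of medium share libraries, so they are not separate evidence.

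A model with stage and medium as additive terms was fitted to the 599 miRNAs with at least 10 reads in 2 libraries. All 10 members passed this filter, each with at least 10 reads in both serum libraries. For medium, miR-367-5p passed only through the serum libraries, in which it was high, with 0 reads in ES 2iL and 3 in ELA 2iL. With limma (two-sided, Benjamini-Hochberg adjustment, 1 residual degree of freedom) none of the 10 members passed an adjusted p of 0.05 for stage (adjusted p 0.133 to 0.144) or medium (0.0910 to 0.304), and 0% of all miRNAs did for either term. At an unadjusted p under 0.05 limma counted 10 members and 125 miRNAs for stage, and 9 members and 176 miRNAs for medium. This fit, like those that follow, counts the gap between the media in the ELA minus ES difference as error. That gap was a median of 3.41 for the members with RPM and 3.53 with TMM factors. Why the fits differed in their calls was not tested. When the recovered reads were tested with edgeR (quasi-likelihood), 9 members were called higher in ELA, when 4.34% of all miRNAs were, and 8 were called lower in 2iL, when 7.01% were. miR-367-5p was not called for stage (adjusted p = 0.126 in edgeR), and miR-302b-5p and miR-367-5p were not called for medium (adjusted p = 0.223 and 0.0726). For stage, DESeq2 called 8 members and 5.68% of all miRNAs higher in ELA, limma with TMM factors 10 members and 4.51%, and limma with no filter on low reads 10 members and 3.41%. For medium, the members called lower in 2iL were 8 with DESeq2, 9 with TMM factors and 10 with no filter, and the shares of all miRNAs were 8.01%, 9.02% and 4.74%. With no filter, limma gave all 10 members the same standard error (0.570 on the log2 scale), so their own spread did not enter those calls. The members' direction for stage, for medium and for ELA minus ES in either medium held under all 4 scalings tried, whereas the median of all expressed miRNAs for the medium moved from 0.42 with RPM to 0.00 with TMM factors.

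By hairpin, miR-302d, miR-302a and miR-302b made up the bulk of the cluster in every library. miR-302d held 43.8% of the cluster's reads in ES serum and 46.8% in ELA serum, against 38.2% in ES 2iL and 44.2% in ELA 2iL. miR-302a held 28.2%, 26.9%, 26.3% and 27.4% in the same order, and miR-302b 23.4%, 20.9%, 30.9% and 22.3%. The order of these 3 was the same in all libraries except in ES 2iL, where miR-302b stood above miR-302a and their intervals overlapped (25.1 to 37.3% and 20.9 to 32.5%). miR-302c held 3.74%, 4.76%, 3.23% and 4.71%, and miR-367, the hairpin farthest downstream, 0.805%, 0.705%, 1.38% and 1.42%. Some of these shares differed beyond counting error. miR-302b was higher in ES 2iL than in ELA serum (20.7 to 21.1%), and miR-367 was higher in ELA 2iL (1.10 to 1.82%) than in ELA serum (0.665 to 0.747%). The shares in ES 2iL rest on 217 reads, against 4161 in ELA 2iL and 47953 or more in the serum libraries.

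**Figure D3:**
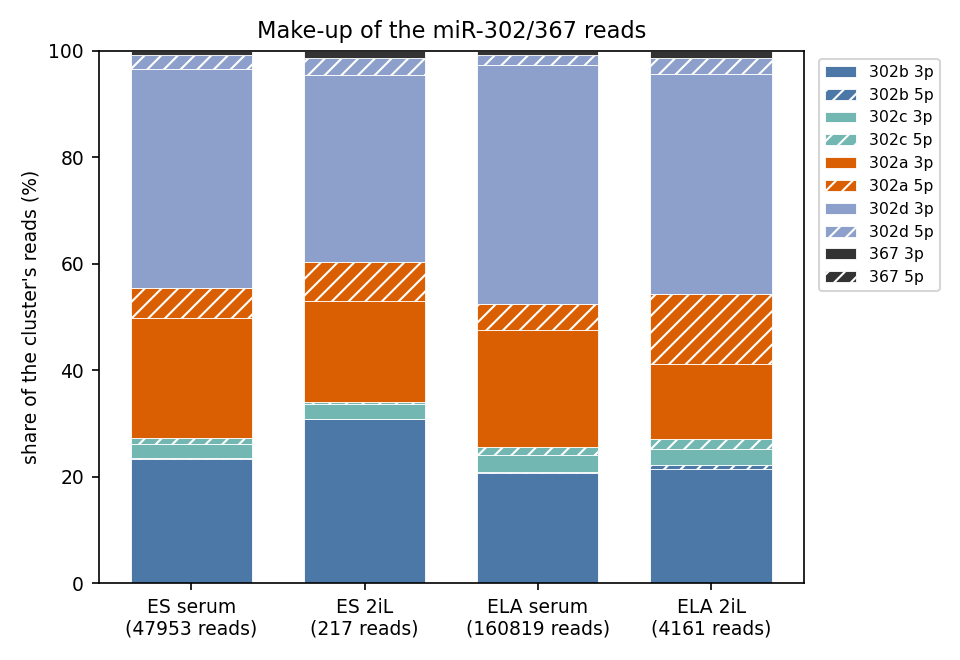
Share (%) of the reads of the 10 miR-302/miR-367 miRNAs held by each member in the 4 libraries, stacked by hairpin in genomic order, with 5p arms hatched. The width of the miR-302a block is alike in all libraries (26.3 to 28.2%), and its hatched 5p part is widest in ELA 2iL (13.3%).

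The arms were then compared within each hairpin. Over the whole cluster, 5p reads were 9.54% in ES serum (9.28 to 9.80) and 8.72% in ELA serum (8.58 to 8.86), against 11.1% (7.55 to 15.9) in ES 2iL and 18.8% (17.7 to 20.03) in ELA 2iL. The higher share in ELA 2iL lay mainly in miR-302a. Its 5p arm was 19.96% of the reads of the hairpin in ES serum (19.3 to 20.6) and 18.4% in ELA serum (18.0 to 18.8), against 28.1% (18.1 to 40.8) in ES 2iL and 48.5% (45.6 to 51.4) in ELA 2iL, that is 552 reads of the 5p arm against 587 of the 3p arm. Within the cluster, miR-302a-3p went from 21.9% of the reads in ELA serum to 14.1% in ELA 2iL, and miR-302a-5p from 4.94% to 13.3%.

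miR-302b was the most one-sided hairpin. Its 5p share was 0.800% in ES serum (0.652 to 0.983) and 0.616% in ELA serum (0.538 to 0.706), against 0 of 67 reads in ES 2iL (where 3 reads would be 4.48% and the Wilson upper limit was 5.42%) and 3.45% in ELA 2iL (2.46 to 4.83). The 3p arm was thus 123.9 times as frequent as the 5p arm in ES serum, 161 times in ELA serum and 28.0 times in ELA 2iL. miR-302c was the most even one in the serum libraries, with a 5p share of 27.2% in ES serum (25.2 to 29.3), 34.1% in ELA serum (33.1 to 35.2) and 39.3% in ELA 2iL (32.7 to 46.3). In ES 2iL it had 7 reads. miR-302d had 6.02% of 5p reads in ES serum (5.71 to 6.35) and 4.23% in ELA serum (4.09 to 4.38), against 8.43% (4.15 to 16.4) in ES 2iL and 6.47% (5.43 to 7.68) in ELA 2iL. miR-367 had 8.55% in ES serum (6.15 to 11.8), 5.56% in ELA serum (4.37 to 7.04) and 5.08% in ELA 2iL (1.74 to 13.9), and 3 reads in ES 2iL. All 5 hairpins gave more 3p than 5p reads in every library, although the intervals of miR-302a in ELA 2iL and of miR-302c and miR-367 in ES 2iL held equal numbers, whereas the median 5p share over all hairpins with 10 reads was 41.3 to 54.1%.

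**Figure D4:**
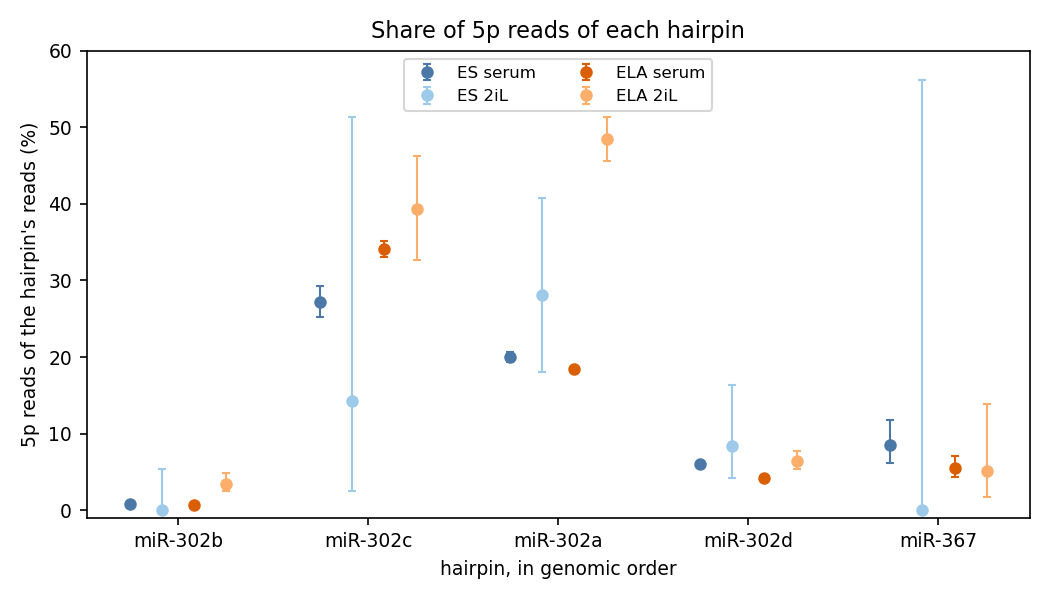
Share of 5p reads (%) of each miR-302/miR-367 hairpin in the 4 libraries, with Wilson 95% intervals. The miR-302a point of ELA 2iL (48.5%) stands apart from those of ES serum and ELA serum (19.96% and 18.4%), and that of miR-302b in ELA 2iL (3.45%) lies above both serum libraries.

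The log2 ratio of 5p to 3p reads was compared between libraries for hairpins with at least 10 reads on each arm in both. From ES serum to ELA serum it changed by 0.47 for miR-302c (0.31 to 0.64), -0.14 for miR-302a (-0.21 to -0.07), -0.38 for miR-302b (-0.74 to -0.0045), -0.54 for miR-302d (-0.63 to -0.44) and -0.67 for miR-367 (-1.32 to 0.012), with exact intervals on the reads. None of the 5 reached 1 in size, as did 14.5% of the 173 hairpins compared. Between ELA serum and ELA 2iL the ratio was higher in 2iL by 2.53 for miR-302b (1.93 to 3.08), 2.06 for miR-302a (1.89 to 2.23), 0.65 for miR-302d (0.36 to 0.92) and 0.32 for miR-302c (-0.12 to 0.75). In that comparison 2 of 4 cluster hairpins reached 1 in size and 31.7% of 104 hairpins did, so changes of this size were common between these libraries. By size of the shift towards 5p, miR-302b ranked 2 and miR-302a ranked 8 of the 104.

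In ES 2iL, miR-302a alone had 10 reads on both arms. Its ratio was higher in ELA 2iL than in ES 2iL by 1.27 (0.38 to 2.22), in a comparison in which 26.3% of 99 hairpins changed by at least 1. Between ES serum and ES 2iL its ratio differed by 0.65 (-0.29 to 1.51), an interval that holds 0, and 30.2% of 169 hairpins changed by 1 there. A ratio within a library does not depend on the scaling of the library.

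Since the 3p arms of miR-302b and miR-302d share bases 2 to 8 with miRNAs of the miR-290/miR-295 cluster, the reads of these miRNAs were summed. The pool was drawn from the 1623 of 1907 listed miRNAs with a matched sequence, and miR-302a-3p is not part of it. The 3 partners are shown to make the shared stretch visible.
miR-291a-3p: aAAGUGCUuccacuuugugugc
miR-294-3p: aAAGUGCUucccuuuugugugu
miR-295-3p: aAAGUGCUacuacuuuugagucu

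These 5 miRNAs summed to 65483 in ES serum and 65498 RPM in ELA serum, and to 142266 and 114023 RPM in ES 2iL and ELA 2iL. The sums would change with any miRNA added to the pool, and miR-302a-3p alone was at 1343 and 8176 RPM in ES serum and ELA serum. The composition of the pool differed between libraries. miR-302b-3p and miR-302d-3p gave 5.86% of the pool in ES serum (5.79 to 5.92) and 37.4% in ELA serum (37.2 to 37.5), against 0.0363% (0.0308 to 0.0428) in ES 2iL and 3.91% (3.76 to 4.06) in ELA 2iL. The partners together were at 61648 in ES serum and 41028 RPM in ELA serum, against 142214 in ES 2iL and 109569 in ELA 2iL. All 3 were lower in ELA, by -1.12 to -0.50 on the log2 scale in serum and by -0.39 to -0.21 in 2iL. In serum these 2 members summed to 3835 RPM in ES cells and 24470 RPM in ELA. miR-295-3p was the most abundant miRNA of the pool in each library (35327 to 126073 RPM).

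**Figure D5:**
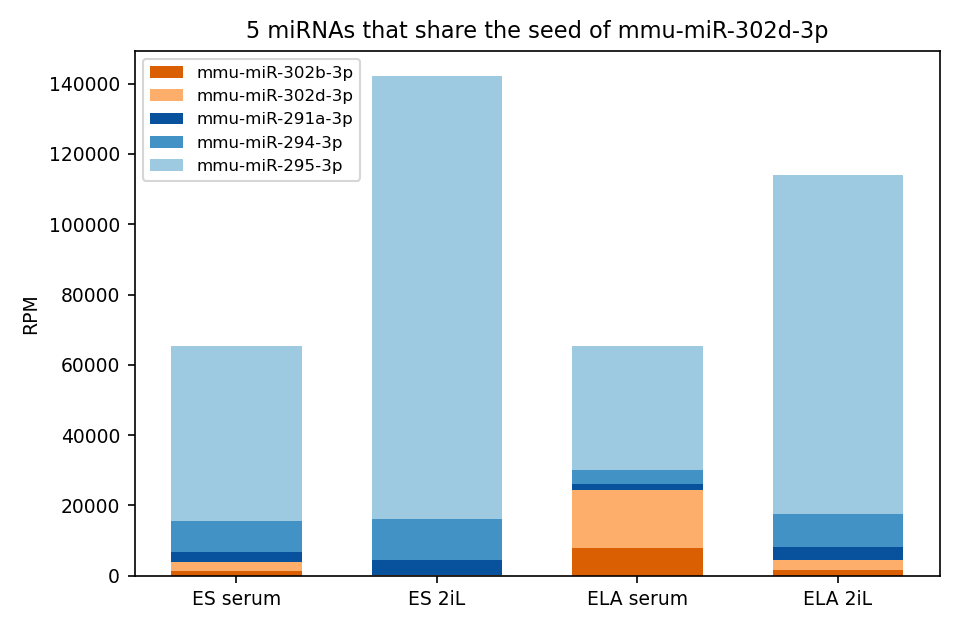
Summed RPM of 5 miRNAs with a matched sequence that share bases 2 to 8 with miR-302d-3p (itself included), stacked in the 4 libraries, with members of miR-302/miR-367 in orange and of miR-290/miR-295 in blue. miR-302a-3p is not part of the bars, and the orange part is 5.86% of the ES serum bar and 37.4% of the ELA serum bar.

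miR-367-3p shares its seed with 5 other miRNAs that had a matched sequence, miR-25-3p, miR-32-5p, miR-92a-3p, miR-92b-3p and miR-363-3p. This pool was at 101028 in ES serum and 91443 RPM in ELA serum, against 94515 in ES 2iL and 123173 in ELA 2iL. miR-367-3p made up 0.0434% of it in ES serum and 0.272% in ELA serum, against 0.00115% in ES 2iL and 0.0774% in ELA 2iL. Of the partners, 2 of 5 were higher in ELA in each medium, among them miR-363-3p by 0.97 in serum and 1.98 in 2iL, while miR-92b-3p was lower by -0.95 and -2.66.

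Finally, the miRNAs outside the cluster with the most similar profile were identified as the smallest Euclidean distance, over 4 libraries, to the mean profile of the 8 members that had reads in each of them. Profiles were log2(RPM + 1), centred per miRNA. Members lay at 0.296 (miR-302b-3p) to 3.34 (miR-367-5p) from that mean, and all candidates at a median of 6.56. The nearest were miR-670-3p (1.46), miR-653-5p (1.72), miR-375-3p (2.69), miR-449c-5p (2.88) and miR-409-5p (3.06). miR-653-5p was at 476 in ES serum and 1774 RPM in ELA serum, against 19.2 in ES 2iL and 310 in ELA 2iL, which was the order of miR-302a-3p. miR-670-3p was at 46.4, 154, 0 and 150 RPM in the same libraries. The other three shared the low level in ES 2iL. With 4 points per profile this likeness is a description.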

How the data were processed

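Small RNA-seq (TruSeq Small RNA kit, MiSeq) was performed on 4 pooled libraries. After adaptor trimming (Trimmomatic) and mapping to mm9 (Bowtie), the authors used featureCounts to count reads by the annotation of miRBase release 20. The deposited RPM values fall when other miRNAs take up more of a library. CASAVA 1.8 is the version given in the submitters' processing notes. The other versions, the mismatch limit and the treatment of reads that fit several miRNAs are not given in the sources used here.

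Groups were taken from titles, which the column names match. The description label exchanges ES 2iL and ELA serum and was not followed. Every deposited RPM value was a whole multiple of that of 1 read (100% of values within 0.01 read). This recovered 8056984 reads in ES serum and 4309257 in ELA serum, against 2767016 in ES 2iL and 587363 in ELA 2iL. The floor of 3 reads was 0.372, 0.696, 1.08 and 5.11 RPM, respectively.

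The planned test was limma (3.58.1) on log2(RPM + 1), with edgeR (4.0.16) and DESeq2 (1.42.0) on the recovered reads as alternatives, in R 4.3.3. The filter was 10 reads in 2 libraries. Calls were made at an adjusted p under 0.05. limma and edgeR, but not DESeq2, were also run on simulated reads with stage changes only, and the outcome is not reported here. Those reads held no medium effect and no gap between the media, so they do not test the calls for the members. Intervals are Wilson (shares), exact Poisson (levels) and exact Clopper-Pearson or conditional (ratios) at 95%, computed with scipy 1.17.1. Hairpin positions came from the mm9 annotation, and sequences from RefSeq (GRCm38.p6) by name (1623 of 1907 miRNAs, 95.3 to 96.7% of the reads).

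The miRNAs named are the 10 members, those that share bases 2 to 8 with a member, and the 5 nearest profiles among miRNAs whose log2(RPM + 1) averaged 5 or more. Members and lists were chosen with earlier results of these data known. Alternatives were other scalings, pseudocounts and filters.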

Additional observations from a re-analysis of the deposited data

Results flagged for a closer look

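The 5p to 3p ratio of the miR-302a hairpin moved in opposite directions from ES to ELA cells for the 2 ES media. On the log2 scale the change was -0.14 in serum (-0.21 to -0.07) and 1.27 in 2iL (0.38 to 2.22), with 1 library on each side of both comparisons. The difference between these changes was not tested. The 2iL value rests on 57 reads in ES 2iL (16 of 5p and 41 of 3p) and on 1139 in ELA 2iL, the library with the fewest reads in all.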

How the results depend on the processing

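No median over the members changed sign under its alternatives (34 values). Of all 52 alternative values, counts of calls and shares included, 30 moved by less than the distance from the value to the nearer of its counting bounds (shares: stayed inside their interval, counts: moved by less than 1.5 times) and 22 by more, some of them still inside the wider bound; the cause was not tested. The median stage contrast of 4.25 became 4.45 with DESeq2 size factors, 3.89 with a pseudocount of 5 RPM and 4.51 over the members with at least 10 reads in every library. The medium contrast of -3.76 became -3.05 with a pseudocount of 5 RPM and -4.27 over those members. In serum the ELA minus ES median of 2.48 became 2.59 with TMM factors, 2.68 with DESeq2 size factors, 2.42 without the 5 most abundant miRNAs and 2.54 over those members. In 2iL the median of 5.95 became 4.82 with a pseudocount of 5 RPM and 6.46 without a pseudocount, with 0 reads set to 3 and miR-367-5p left out, an alternative chosen after seeing the data. The gap between the media of 3.41 became 2.31 with a pseudocount of 5 RPM. Members called for stage rose from 0 with limma to 9 with edgeR (26 of 599 miRNAs called higher in ELA), 8 with DESeq2 (34 of 599), 10 with limma on TMM-scaled values (27 of 599) and 10 with limma on all 1202 miRNAs with reads (41 of 1202). For medium they rose from 0 to 8, 8, 9 and 10, respectively, where 42, 48 and 54 of 599 and 57 of 1202 miRNAs were called lower in 2iL. With a pseudocount of 0.5 RPM limma again called 0 for both terms. The median 5p share over the hairpins went from 8.43% to 28.1% in ES 2iL and from 6.47% to 22.9% in ELA 2iL when hairpins with under 10 reads on an arm were left out, which leaves fewer hairpins. No replicate block could be fitted because each group had 1 library. The additive fit already compares ELA with the ES cells of the medium they came from, so it holds the change of culture medium along with stage. With no filter, limma used the same standard error for all 10 members. In ES 2iL 6 of the 10 members had under 10 reads, and in ELA 2iL, the library with the highest floor (5.11 RPM for 3 reads), miR-367-5p had 3.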
